A study of Mus musculus with 6 samples.

Results

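The genes described here carry and restrain the interleukin-4 (IL-4) signal: the receptor chains Il4ra, Il13ra1 and Il2rg, the transcription factors Stat6 and Stat3, and the feedback inhibitors Socs1, Socs2, Socs3 and Cish. They are 9 of the 54446 gene IDs in the count table, picked by name for their place in the pathway. RNA was sequenced from bone marrow-derived macrophages (BMDMs), cells grown for 7 days from marrow of male BALB/c mice aged 6 to 8 weeks in medium with 20% L929-conditioned medium, which supplies CSF-1. The cells were left unpolarized (M0), or were given IFN-γ at 20 ng/mL with LPS at 50 ng/mL (M1) or IL-4 at 20 ng/mL (M2). Polarization to M1 or M2 took 24 hours. In each state 1 library came from control cells, with the vehicle DMSO, and 1 from cells given regorafenib, a multikinase inhibitor, at 1 µM. In M1 and M2 the drug was given from 1 hour before polarization. The time in culture and with the drug is not stated for the M0 cells in the sources used here. All 6 libraries share the CSF-1 culture. Whether the libraries came from 1 marrow preparation is not stated in the labels.

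IL-4 is bound by IL-4Rα, the product of Il4ra. In blood cells this chain pairs mainly with the common gamma chain encoded by Il2rg (the type I receptor), while the type II receptor pairs it with IL-13Rα1, the product of Il13ra1, and also takes IL-13. Janus kinases on these chains phosphorylate Stat6, which enters the nucleus and turns on the genes of the alternatively activated (M2) macrophage. Stat3 serves IL-6 and IL-10 in the same way. The SOCS proteins are made in response to STATs and close the loop: Socs1 and Socs3 block Janus kinases, and Cish and Socs2, close relatives of each other, are classical products of Stat5 signaling downstream of GM-CSF, IL-2 and growth hormone.

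With 1 library per condition there is no replicate check. A level is given in CPM, the counts of a gene scaled to library size with TMM factors over the 6 libraries, and a ratio as a log2 value with a 95% interval from the counts, which covers counting error and not the spread between cultures. Fewer cells that express a gene and less RNA of it per cell cannot be told apart in such bulk RNA. A gene was called higher or lower where the ratio was at least 2-fold and the interval left out 0, provided that 1 library of the pair held 10 or more counts of it. The libraries held 25359309 to 34898342 counts. All 8 macrophage markers were detected, with a summed level of 21869 to 48726 CPM, and all 5 mast cell and basophil markers and all 4 erythroid markers were at 0. Of 6 T cell markers, 4 were at 0 in every library and the sum stayed between 0.394 and 1.82 CPM. Other lists were not empty and differed between libraries. The sum of 6 neutrophil and granulocyte precursor markers, 2 of them at 0 throughout, was 84.8 CPM in the M0 control library and 158 with regorafenib, 153 and 106 in the M1 pair and 88.8 and 132 in the M2 pair. That of 6 dendritic cell markers was 32.0 and 38.8 CPM in the M1 pair and between 0.455 and 2.75 in the other libraries. Fibroblast markers (5) summed to 3.19 to 10.2 CPM and endothelial markers (4) to 9.12 to 38.1, while 4 B cell and 3 NK cell markers stayed at or under 0.228 CPM. The M1 libraries carried their usual mark: Nos2, the inducible nitric oxide synthase of M1 cells, had 410649 and 221627 counts in the M1 control and regorafenib libraries and 39 to 50 in the others.

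The 5′ ends of the inhibitor genes hold the short DNA words that STATs and interferon regulatory factors are known to bind, and these are shown because Cish, Socs1 and Socs3 had the widest ranges of the SOCS genes with more than a few counts. Promoters of 300 bases, 250 before and 50 after the start, were taken from RefSeq (GRCm38.p6, the C57BL/6J reference) and matched 8 of the 9 genes. Both strands were searched for TTCNNNGAA (the GAS word of most STATs), TTCNNNNGAA (the wider spacing that Stat6 accepts) and GAAANNGAAA (an interferon regulatory factor word). Capitals below mark the matches, in 30-base windows read 5′ to 3′ along the gene.

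Cish: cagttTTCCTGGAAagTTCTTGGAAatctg

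Socs3: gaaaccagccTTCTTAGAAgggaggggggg

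Socs1: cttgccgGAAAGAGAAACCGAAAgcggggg

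The Cish window is at chr9:107296654-107296683 on the plus strand and holds 2 GAS words, the first of which begins at the RefSeq start itself. In the Gencode annotation used for gene positions here, Cish starts further upstream, and all 250 bases before the RefSeq start lie in its exons, as do 77 of the 250 for Socs3 and 151 for Il4ra, so that these windows are not wholly upstream of transcription in that annotation. The Socs3 window, chr11:117969501-117969530 on the minus strand, holds 1 GAS word. The Socs1 window, chr16:10785597-10785626 on the minus strand and outside Gencode exons, holds 2 overlapping GAAANNGAAA words. Of all 32851 promoters, 8.30% held the GAS word, 6.95% the wider one and 3.44% the GAAA repeat. No match of the 3 words was found in the windows of Il4ra, Il13ra1, Il2rg, Stat6 or Stat3, which says only that these letters are not in these windows. Socs2 had no entry.

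Of the receptor chains, Il4ra and Il13ra1 differed most between M1 and M2. Il4ra (chr7:125552120-125579474, plus strand) was at 30.6 CPM in the M0 control library and 64.4 with regorafenib, at 167 and 144 in the M1 pair, and at 18.9 and 25.2 in the M2 pair. The M1 libraries were thus the highest and the M2 libraries the lowest, 8.83-fold apart at the extremes, and every neighbouring pair in that order was separated by more than counting error. Without drug Il4ra was 5.44-fold higher in M1 than in M0 (log2 ratio 2.44, interval 2.34 to 2.55) and 1.62-fold lower in M2 than in M0 (log2 ratio -0.70, interval -0.84 to -0.56), short of the 2-fold limit. Under regorafenib the M1 to M0 ratio was 1.16 (interval 1.08 to 1.24) and the M2 to M0 ratio -1.36 (interval -1.48 to -1.23), both past 2-fold. Scaling by total counts put the M1 to M0 ratio under regorafenib at 0.75, under the limit.

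The drug ratio of Il4ra was past 2-fold in M0 alone of the 3 states. There it was 2.10-fold higher than in the control library, at 2123 counts against 941 (log2 ratio 1.07, interval 0.96 to 1.18). In M1 it was slightly lower, at -0.21 (interval -0.27 to -0.14), and in M2 slightly higher, at 0.42 (interval 0.26 to 0.57), neither of which was called. The drug and state ratios are built on the same libraries, so that the high M0 regorafenib library enters the M1 to M0 and M2 to M0 ratios under the drug as well. The summed neutrophil and granulocyte precursor markers were likewise higher with regorafenib in M0 and M2 and lower in M1, as were those of fibroblasts. Endothelial markers went the other way, from 38.1 to 18.3 CPM in M0, 15.4 to 26.9 in M1 and 25.7 to 9.12 in M2, and macrophage markers were higher with the drug in all 3 states, from 30918 to 48726, 31583 to 34053 and 21869 to 33539 CPM. The part of these lists in the drug ratios of the 9 genes was not tested.

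Il13ra1 (chrX:36112110-36171259, plus strand), the chain that makes the type II receptor, had the widest range of the 3 chains, 113-fold. It was at 5.40 and 6.13 CPM in the M0 control and regorafenib libraries, 87.0 and 62.6 in those of M1, 0.767 and 1.86 in those of M2. The M2 libraries were the low end, with 28 and 52 counts, and the M1 libraries the high end, with 2247 and 1508. Without drug the log2 ratio to M0 was 4.01 in M1 (interval 3.78 to 4.24) and -2.82 in M2 (interval -3.45 to -2.23), the latter -1.86 with 1 CPM added. Only 0.412% of the genes tested had a lower M2 to M0 ratio. With regorafenib the corresponding ratios were 3.35 and -1.72, both called. The drug ratio in M2 was 1.28 (interval 0.59 to 1.99), called higher on few counts and 0.69, no longer called, with 1 CPM added to both values, while it was 0.18 in M0 with an interval that held 0 and -0.47 in M1 (interval -0.57 to -0.38).

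Il2rg (chrX:101264378-101268255, minus strand), the gamma chain shared by the receptors of IL-2, IL-4, IL-7, IL-9, IL-15 and IL-21, varied less, by 3.55-fold. Its levels in the control and regorafenib libraries were 42.3 and 30.4 CPM for M0, 71.6 and 108 for M1, and 34.9 and 40.4 for M2. The M1 libraries were again the highest, but here the M1 regorafenib library stood above the M1 control, by 0.59 on the log2 scale (interval 0.51 to 0.68), and the M0 regorafenib library was the lowest of all. Gm20489, which overlaps exons of Il2rg on the same strand, had 0 counts. That does not show how reads in the shared bases were assigned, and reads left out there would lower the level of Il2rg. The M2 regorafenib and M0 control libraries could not be ordered within counting error. No drug ratio of Il2rg reached 2-fold, and M1 to M0 was called under regorafenib (1.83, interval 1.72 to 1.94) and not without it (0.76, interval 0.66 to 0.86).

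Per kilobase of exon, which allows levels to be compared between genes, the make-up of the 3 receptor chains was not alike in the 3 states. Il2rg held 73.0% of the summed CPM per kilobase of the 3 chains in the M0 control library, 37.0% in M1 and 81.4% in M2. Il13ra1 held 5.99% in M0, 28.9% in M1 and 1.15% in M2. In the IL-4-treated control library the level of Il13ra1 per kilobase was 0.0657 times that of Il4ra, against 0.844 times in M1. With regorafenib in M0 the share of Il4ra was 42.7%, against 21.01% in the control, and the ratio of Il2rg to Il4ra was 1.19 in place of 3.47. The exon length of Il2rg includes the bases shared with Gm20489. If reads there were not counted for Il2rg, its shares and its ratios to Il4ra are too low. The shares of the other chains would then be too high.

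**Figure D1:**
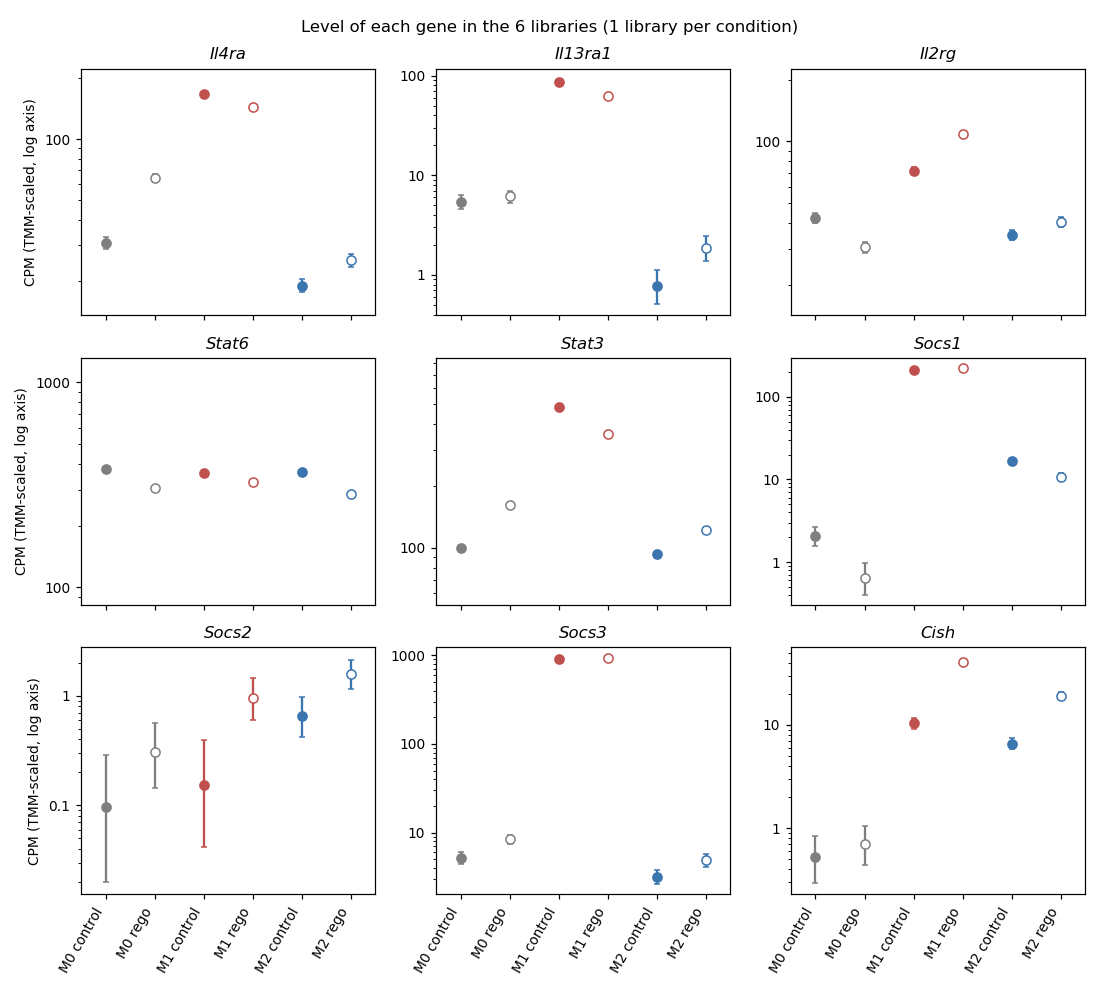
TMM-scaled CPM of the 9 genes (vertical log axes, different in each panel) in the 6 libraries along the horizontal axis; filled points are control libraries, open points regorafenib libraries, and bars are 95% counting intervals. Il4ra, Il13ra1, Stat3, Socs1 and Socs3 peak in the M1 libraries, Stat6 stays between 286 and 379 CPM, and Socs2 stays under 2 CPM.

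Stat6 (chr10:127642986-127660957, plus strand), the transcription factor that IL-4 activates, was abundant and nearly level. It was at 379 and 304 CPM in the M0 control and regorafenib libraries, 360 and 328 in those of M1, 366 and 286 in those of M2, a range of 1.32-fold. The 3 control libraries lay between 360 and 379 CPM and the 3 regorafenib libraries between 286 and 328, so that the sets did not overlap. They also stood apart with DESeq2's size factors, but scaled by total counts they overlapped, since the M1 control library, at 295, lay below the M0 and M2 regorafenib libraries, at 342 and 316. Of the 14917 genes that reached 10 counts in some library, 5.40% had regorafenib and control libraries that did not overlap, and Stat6 was the 1 of the 9 genes here that did so, both with TMM scaling. The drug ratios were -0.32 in M0 (interval -0.36 to -0.28), -0.14 in M1 (interval -0.18 to -0.09) and -0.36 in M2 (interval -0.40 to -0.32), all short of 2-fold. Against M0 the TMM-scaled state ratios were smaller still, though under regorafenib the M1 and M2 libraries stood apart, at 328 and 286 CPM. M2 to M0 was -0.05 without drug. M1 to M0 was -0.07 without drug, with a range of -0.51 to -0.03 over the scalings, and 0.11 with it, which changed sign with the scaling, from -0.30 to 0.18.

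Stat3 (chr11:100885098-100939540, minus strand) was, like Il4ra, highest in the M1 libraries in both drug arms. Its levels in the control and regorafenib libraries were 99.2 and 162 CPM for M0, 486 and 359 for M1, and 92.9 and 123 for M2. The M1 libraries were the highest, 4.89-fold over M0 without drug (log2 ratio 2.29, interval 2.23 to 2.35), and the M2 control library was the lowest. Under regorafenib M1 to M0 was 1.15 (interval 1.10 to 1.20), and 0.74 when scaled by total counts, under the limit. The drug ratio was 0.71 in M0 and 0.40 in M2 but -0.43 in M1, each with an interval that left out 0 and none called. Per kilobase, Stat6 stood 8.26 times above Stat3 in the M0 control library, 1.61 times in M1 and 8.53 times in M2. Stat3 and Stat5a overlap by 72 exon bases on opposite strands, and Stat6 and Nab2 by 40, and Il4ra overlaps Gm44876, which had 0 counts, on the opposite strand. The strand column of the counts is not stated, so that it is not known how reads in these overlaps were assigned.

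Socs1 and Socs3 were highest in the M1 libraries. Socs3 (chr11:117966079-117970047, minus strand), which shuts down signaling through gp130, stood in the control and regorafenib libraries at 5.18 and 8.40 CPM for M0, 911 and 931 for M1, and 3.18 and 4.90 for M2. It was the most abundant SOCS gene per kilobase in M1, 176-fold over M0 without drug (log2 ratio 7.46, interval 7.23 to 7.69), and in M2 it lay below M0, at -0.70 (interval -1.06 to -0.35). The drug ratios were 0.70 in M0, 0.03 in M1 and 0.62 in M2. In M1 the regorafenib and control libraries differed by 1.02-fold, with 22440 and 23535 counts.

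Socs1 (chr16:10782240-10785536, minus strand), a direct inhibitor of Janus kinases and a feedback brake on both IFN-γ and IL-4, was higher in both polarized states than in M0. Its counts in the control and regorafenib libraries were 63 and 21 for M0, 5476 and 5315 for M1, and 615 and 297 for M2, or 2.05, 0.637, 212, 221, 16.8 and 10.6 CPM. M1 was 103-fold over M0 without drug (log2 ratio 6.69, interval 6.33 to 7.07) and M2 8.21-fold (log2 ratio 3.04, interval 2.66 to 3.44). The drug ratio was -1.69 in M0 (interval -2.47 to -0.95), called lower. It was -0.67 in M2 (interval -0.87 to -0.46), not called, and 0.06 in M1. The M0 call rests on 21 against 63 counts, and with 1 CPM added to both values the ratio was -0.90, under the limit.

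Cish (chr9:107296026-107302784, plus strand) was low in M0 and higher in every other library, and regorafenib libraries stood above their controls in M1 and M2. Its counts in the control and regorafenib libraries were 16 and 23 for M0, 269 and 982 for M1, and 241 and 533 for M2, or 0.521, 0.698, 10.4, 40.7, 6.60 and 19.1 CPM. The regorafenib libraries were the higher of the pair in M1 and M2 by far more than counting error, and in M0 the pair could not be told apart. The drug ratio was 1.97 in M1 (3.91-fold, interval 1.77 to 2.17), above those of 99.7% of the genes tested, and 1.53 in M2 (2.89-fold, interval 1.31 to 1.75). In M0 it was 0.42 (interval -0.56 to 1.44). Against M0, Cish was 19.99-fold higher in M1 (log2 ratio 4.32, interval 3.60 to 5.15) and 12.7-fold higher in M2 (log2 ratio 3.66, interval 2.93 to 4.49) without drug, and 58.4-fold and 27.3-fold higher with regorafenib. These folds rest on 16 and 23 counts in M0, and with 1 CPM added the log2 ratios were 2.91 and 2.32 without drug and 4.62 and 3.56 with it, all still called. Of the transcripts that overlap it on the opposite strand, Gm17040 had at most 4 counts in a library and Gm17041 had 0.

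Socs2, on chromosome 10 (95385362 to 95417180, minus strand), a regulator of growth hormone signaling, was close to the limit of detection. Its counts in the control and regorafenib libraries were 3 and 10 for M0, 4 and 23 for M1, and 24 and 44 for M2, at most 1.57 CPM. The regorafenib library was the higher of each pair, and no neighbours in the order of the 6 levels could be separated within counting error. The drug ratio was 2.62 in M1 (interval 1.07 to 4.62) and 1.26 in M2 (interval 0.51 to 2.04), both called, and 1.64 in M0 with an interval from -0.32 to 4.13. With 1 CPM added to both values the M1 and M2 ratios were 0.76 and 0.63, under the limit. M2 to M0 was 2.75 without drug, on 24 and 3 counts, and 2.37 with regorafenib, where M1 to M0 was 1.65, on 23 and 10 counts. With 1 CPM added these 3 ratios were 0.59, 0.98 and 0.58, none called.

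**Figure D2:**
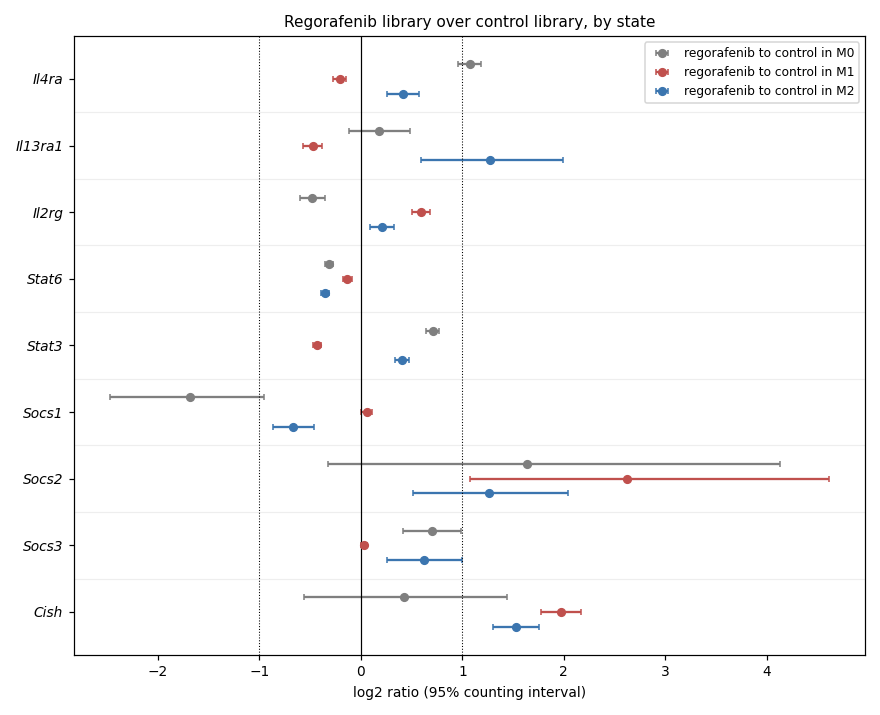
Log2 ratio of the regorafenib library to the control library (horizontal axis) for each gene (vertical axis) in M0, M1 and M2, with 95% counting intervals; dotted lines mark a 2-fold difference. Cish is past 2-fold in M1 and M2, Il4ra is past it in M0, and the 3 values of Stat6 lie between -0.36 and -0.14.

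The make-up of the 4 SOCS genes differed with the ligand. Their summed level per kilobase was 2.59 in the M0 control library, 390 in M1 and 7.99 in M2. Socs3 made up 69.2% of it in M0 and 80.9% in M1 but 13.8% in M2, where Socs1 made up 72.5% and Cish 12.9%. With regorafenib in M2 the sum was 8.48, with Socs1 at 43.1%, Cish at 35.0% and Socs3 at 19.98%. The ratio of Socs1 to Cish per kilobase was 5.63 in the M2 control library and 1.23 with regorafenib, and 44.9 and 11.95 in M1. The exon lengths behind these values are set by the annotation, 6419 bases in 3 blocks for Cish and 2908 in 2 for Socs1.

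**Figure D3:**
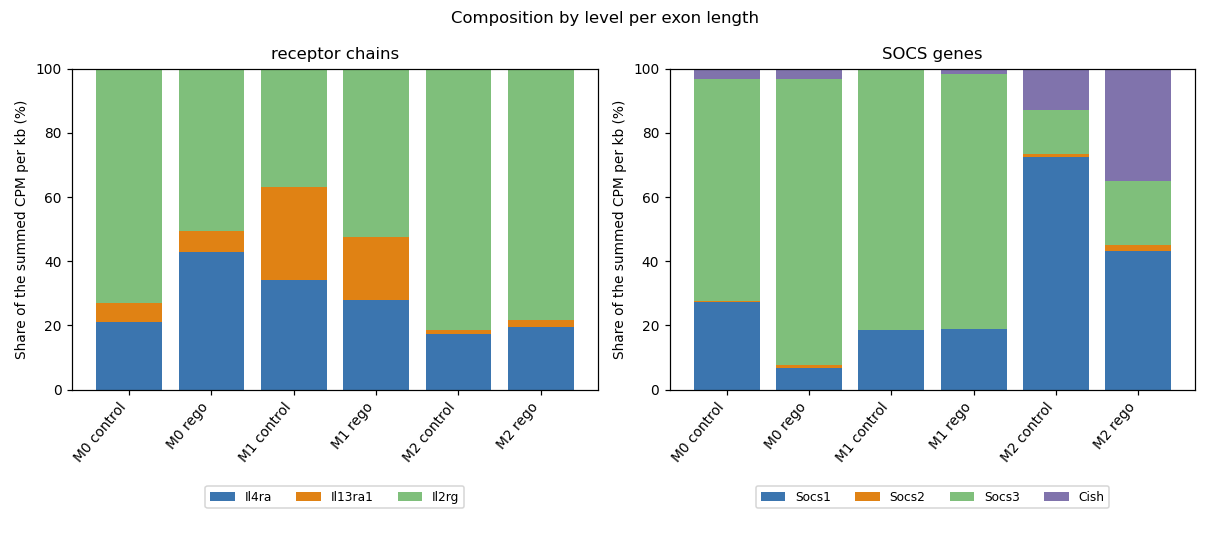
Share of the summed CPM per kilobase of exon (vertical axis, percent) held by each receptor chain (left) and each SOCS gene (right) in the 6 libraries (horizontal axis). Il13ra1 is widest in the M1 libraries, and Cish takes 35.0% of the SOCS sum in the M2 regorafenib library.

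Counted over the 9 genes, 1 was called higher (Il4ra) and 1 lower (Socs1) with regorafenib in M0, where 18.5% of all genes tested were called in either direction. In M1 2 were called higher (Cish and Socs2), against 3.74% of all genes, and in M2 3 were called higher (Il13ra1, Socs2 and Cish), against 9.34%. The median drug ratio of the 9 was 0.42 in M0, 0.03 in M1 and 0.42 in M2, beside medians of 0.00, -0.02 and -0.03 over all genes. Without drug, 6 of the 8 genes tested were higher in M1 than in M0, all but Il2rg and Stat6, where 35.4% of all genes were called. With regorafenib 8 of 9 were higher, all but Stat6, against 36.0%. In M2 against M0, 3 were higher (Socs1, Socs2 and Cish) and 1 lower (Il13ra1) without drug, against 10.8% of all genes. With regorafenib the same 3 were higher and Il13ra1 and Il4ra lower, against 7.95%. The state calls of Socs2 in these counts end with 1 CPM added. The M1 and M2 ratios of an arm share its M0 library.

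**Figure D4:**
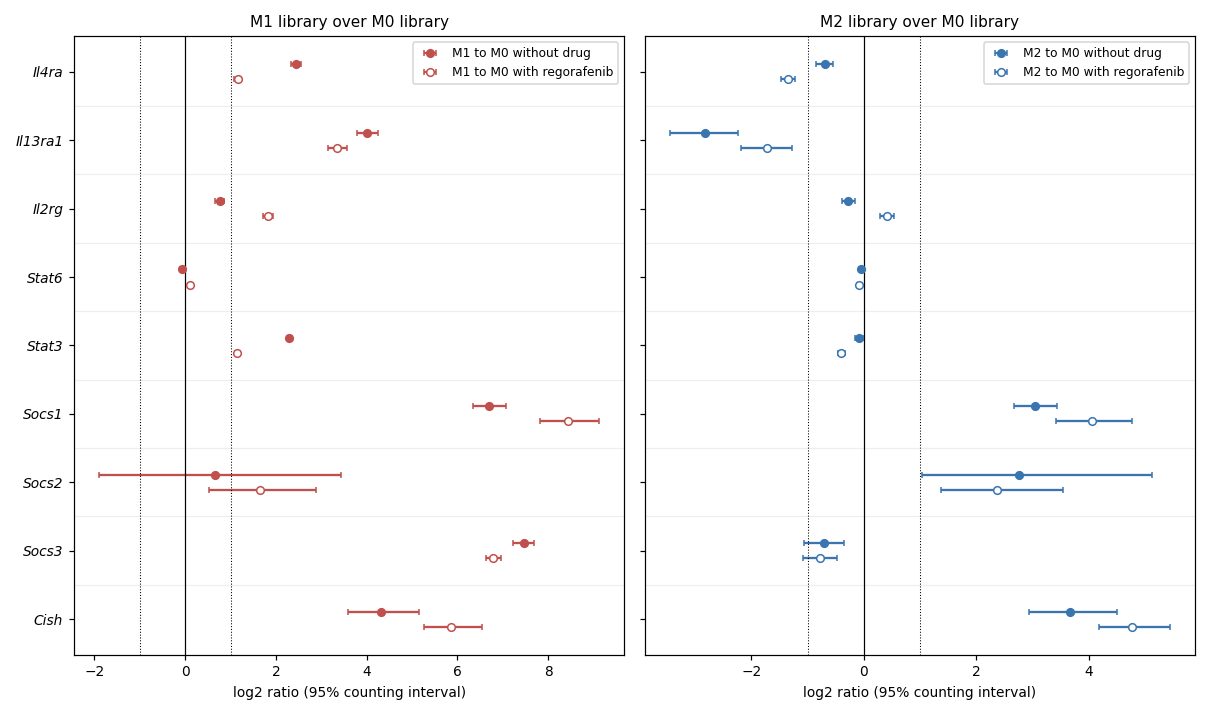
Log2 ratio of the M1 (left) and M2 (right) library to the M0 library (horizontal axes) for each gene, without drug (filled) and with regorafenib (open), with 95% counting intervals; dotted lines mark a 2-fold difference. Socs1, Socs3 and Cish lie above 4 in M1, and in M2 Socs1, Socs2 and Cish lie to the right and Il13ra1 to the left.

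To look for a change shared by the states, all 6 libraries were fitted in an edgeR quasi-likelihood model of state and drug, which leaves 2 residual degrees of freedom and takes the difference of the drug response between states as its noise. For regorafenib 0 of 14110 genes (0%) passed an adjusted p of 0.05, with 1637 at an unadjusted p under 0.05 and 301 called by DESeq2. Cish had the lowest p of the 9 genes, at a log2 change of 1.49 ± 0.307 (SE, higher in 3 of 3 states, edgeR adjusted p = 0.315). Socs2 stood at 1.72 ± 0.422 (higher in 3 of 3, edgeR adjusted p = 0.323) and Stat6 at -0.26 ± 0.136 (lower in 3 of 3, edgeR adjusted p = 0.464). For Cish and Socs2 the M0 pair is counted there by its sign alone, since its counting interval held 0. DESeq2 gave Cish a change of 1.45 with an adjusted p of 0.00586, the 1 gene of the 9 that it called.

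For M1 against M0 across both arms, 5174 genes (36.7%) passed, and 7 of the 9 rose. Socs3 rose by 7.19 ± 0.289 on the log2 scale (edgeR adjusted p = 0.000225), Socs1 by 7.51 ± 0.465 (edgeR adjusted p = 0.000473) and Cish by 5.22 ± 0.431 (edgeR adjusted p = 0.000912). Il13ra1, Il4ra, Stat3 and Il2rg rose by 3.78, 1.86, 1.80 and 1.34, with edgeR adjusted p values from 0.0020 to 0.0143, each higher in 2 of 2 pairs. Socs2 (1.40, adjusted p = 0.106) and Stat6 (0.08, adjusted p = 0.748) did not pass edgeR's test. For M2 against M0 28 genes (0.198%) passed, and Cish was among them, at 4.26 ± 0.420 (edgeR adjusted p = 0.0385). Socs1 was at 3.41 ± 0.407 (edgeR adjusted p = 0.0616) and Il13ra1 at -2.17 ± 0.426 (edgeR adjusted p = 0.140), both in the same direction in 2 of 2 pairs. These M2 calls depend on the fit. More genes, also of the 9, passed with DESeq2, without the expression filter and without the M1 libraries, as given in the last section.

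The rest of the pathway was read from lists of receptors, kinases, STATs, inhibitors, ligands and target genes. Among 23 other JAK-STAT receptor genes, regorafenib called 4 higher and 1 lower of 20 tested in M0, 1 and 1 of 21 in M1, and 2 and 1 of 20 in M2. Over all genes 18.5%, 3.74% and 9.34% were called in M0, M1 and M2, the shares beside which all counts of drug calls in these lists stand. The gene called lower in all 3 was Il13ra2, the decoy receptor of IL-13, which falls under the count asked of a named gene and was picked after its values were seen: it had 29, 15 and 40 counts in the M0, M1 and M2 control libraries and 2, 2 and 5 with regorafenib. Csf2rb, the beta chain of the GM-CSF receptor, was higher with the drug in M0 (1.21) and M2 (1.09), and it shares much of its sequence with Csf2rb2, so that their counts are uncertain. Il10ra (1.40 in M0) and Ifngr1 (1.08 in M0, 1.03 in M2) were the other named receptors called. In M1 the gene called higher was Il2ra, the IL-2 receptor alpha chain, at 35 and 195 counts. Il2rb was at 0 counts in all 6 libraries.

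Jak1, which sits on IL-4Rα, had 6036 to 8687 counts in the 6 libraries, and none of its ratios reached 2-fold. Jak3, the kinase of the gamma chain, and Tyk2, a kinase of the type II receptor, likewise stayed within 2-fold, with drug ratios of 0.62, -0.56 and 0.79 for Jak3 and 0.48, 0.66 and 0.38 for Tyk2 in M0, M1 and M2. Jak2 differed with the state, at 1011 counts in M0, 19989 in M1 and 1962 in M2 without drug (M1 to M0 4.55, interval 4.46 to 4.65), and its drug ratios were 0.47, 0.02 and 0.45. Of the 10 kinases and adaptors regorafenib called 1 higher in M0 and 1 higher in M2 and none in M1. It was Irs1 both times, a docking protein of the IL-4 receptor named after its values were seen, with 2 and 26 counts in M0 and 1 and 14 in M2.

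Of the 5 other STATs, regorafenib called 2 lower and 0 higher in M0, with a median of -0.96 beside 0.00 over all genes, and none in M1 or M2. Stat4, 1 of the 2, had 29 and 4 counts in the M0 pair and was named after its values were seen. Stat5a and Stat5b, the classical drivers of Cish, had drug ratios of 0.47, 0.40 and 0.62 and of 0.57, 0.04 and 0.60 in M0, M1 and M2, none called. Of the 4 other SOCS genes Socs6 was called higher in M0 (1.13, interval 1.03 to 1.22) and lower in M1 against M0 in both arms (-1.42 and -2.62) among the pair ratios, in which no other was called. In edgeR's M1 to M0 test across both arms 2 of the 4 passed, 1 higher and 1 lower, beside 36.7% of all genes. Among 14 other inhibitors, the phosphatase gene Ptpn1 was higher (1.17) and Usp18, a brake on interferon signaling, lower (-1.47) with regorafenib in M0, and Bcl6, a repressor that competes for STAT sites, was lower in M1 (-1.62), at 2030 and 614 counts. Cblb, a ubiquitin ligase, was higher in M2 than in M0, by 1.90 without drug and 1.21 with it.

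Il4 and Il13 were at 0 counts in every library, so that no transcript of these ligands was counted in the cells. A count of 0 allows up to 3 counts in a library. Of the 18 ligand genes, regorafenib in M1 called Csf2, the gene of GM-CSF, higher, at 70 and 462 counts (2.82, interval 2.46 to 3.21), and Il10 lower, at 497 and 96 counts (-2.27, interval -2.60 to -1.95). Csf2 had at most 1 count in the M0 and M2 libraries. In M0 2 of the 7 ligand genes tested were called lower and 0 higher, Il10 at 24 and 4 counts and Lif at 11 and 0, both named after their values were seen. Il10 was thus called lower in all 3 states, but in M0 and M2 on 67 or fewer counts, and in M0 at 0.781 and 0.121 CPM. In M2, where Cish was also higher with the drug, Osm was lower (-1.16), with Il10 and Lif called lower on 67 or fewer counts. Il6, a ligand of the Stat3 pathway, had 37404 and 39074 counts in M1 and 5 and 12 in M0.

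Most IL-4 and Stat6 targets were higher in the M2 libraries. In M2 against M0, 18 of its 21 genes tested were higher without drug and 20 of 22 with regorafenib, with none lower, and medians of 3.88 and 3.98, beside 10.8% and 7.95% of all genes called. Across both arms 9 of 22 rose in edgeR's test, beside 0.198% of all genes. Regorafenib called 3 of 15 higher and 3 lower in M0, 4 of 14 higher and 2 lower in M1, and 9 of 22 higher and 5 lower in M2, with a median of 0.41 in M2. Among the lower in M2 was Cdh1, the E-cadherin gene (-2.51). Higher in M2 were Ccl24, an eosinophil chemokine (3.98), and Il4i1, a secreted amino acid oxidase (3.42). Of the 12 IFN-γ and LPS targets, 11 were higher in M1 than in M0 in both arms, beside 35.4% of all genes called without drug and 36.0% with it. In M0 regorafenib called 3 of 10 lower and 0 higher, among them Cxcl10, an interferon-induced chemokine (467 and 66 counts, -2.92), and Ptgs2, the inducible cyclooxygenase (214 and 69 counts, -1.73). In M1 it called 1 of 12, Il12b, higher (at 10147 and 26829 counts), and in M2 2 of 10 higher and 2 lower, with Acod1 at 2.26, Irf1 at 1.64 and Cd40 at -1.86.

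**Figure D5:**
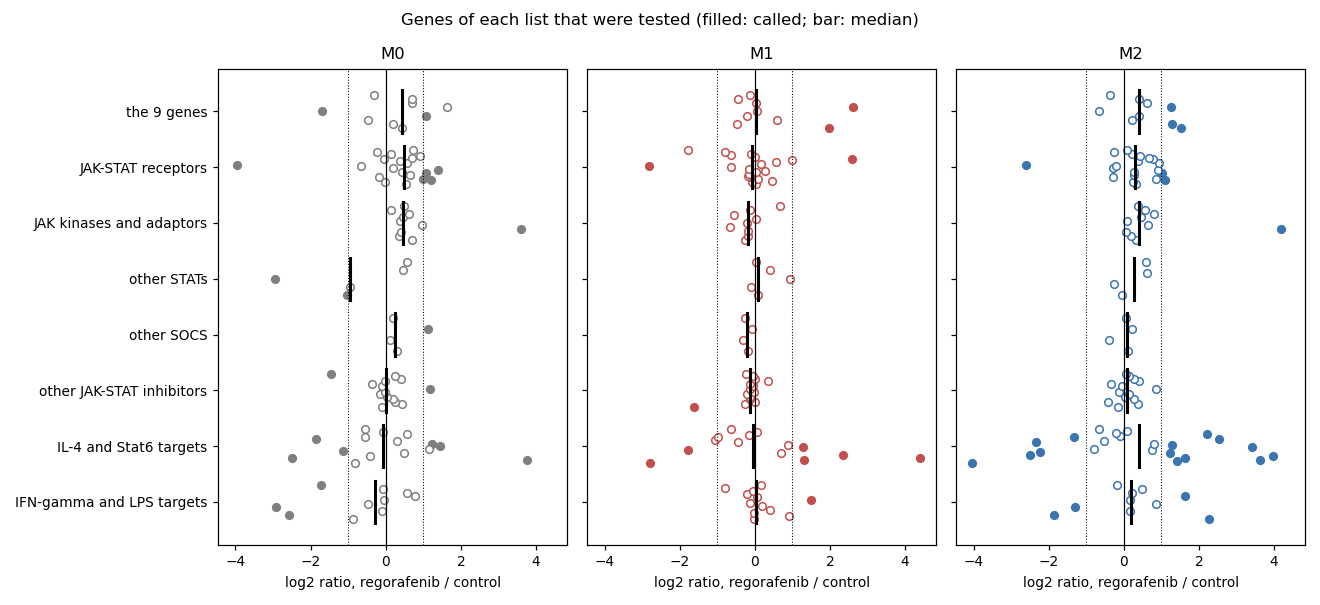
Log2 ratio of regorafenib to control (horizontal axis) for the genes tested in each list (rows) in M0, M1 and M2 (panels); filled points were called, open points were not, and the black bar is the list's median. The IL-4 and Stat6 targets spread to both sides in the M1 and M2 panels and reach 4.40 in M1, while most receptors and kinases lie within 2-fold.

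The genes with the most similar profile over the 6 libraries were found by the root mean square difference of mean-centred log2(CPM + 1) values, for the 8 genes whose level varied at least 2-fold. Only protein-coding genes with a mean of at least 100 counts a library were searched. Il4ra was closest to Spaca6 (0.114), Notch1 (0.155) and Cd302 (0.162). Notch1, a receptor that also acts in macrophage activation, was at 45.2 and 99.4 CPM in the M0 pair, 213 and 176 in the M1 pair and 27.7 and 42.9 in the M2 pair. Stat3 was closest to Abhd18 (0.0738), Whamm (0.0795) and Tmem170b (0.0987), and Il2rg to Gpd2 (0.154), Tdrd3 (0.176) and Rac2 (0.178). Il13ra1 had Siglece (0.318), Pilrb2 (0.331) and Nfkbiz (0.337) nearest, and Socs3 had Ptges, the prostaglandin E synthase (0.170), Antxr1 (0.222) and Serpinb2 (0.359). Socs1 was nearest to Tarm1 (0.438), Rasgrp1 (0.584) and Slc7a2 (0.618). Cish had no close neighbour: its nearest was Il4i1 (0.596), which was at 3.999 and 42.8 CPM in the M2 control and regorafenib libraries, followed by Fcgr2b (0.824) and Slamf8 (0.831). Socs2, at few counts, was nearest to H2-DMa (0.197), Mob3b (0.242) and Tbc1d2b (0.245). The 1 CPM added to each value narrows the 16.1-fold range of Socs2, so that its distances cannot be set beside those of the other genes.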

How the data were processed

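Libraries were made with the TruSeq Stranded mRNA kit and read as pairs of 100 bases. The authors removed adaptors with cutadapt 2.4, aligned with STAR 2.7.2a to GRCm38 and deposited raw counts per gene (Gencode gene definitions). The strand column is not given in the sources used here. Names, positions and exon lengths came from another Gencode release of the same build: of 54446 IDs, 53229 matched with version, 1180 without, and 37 had no name.

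TMM factors (0.820 to 1.12) were computed with edgeR 4.0.16 in R 4.3.3. For 7 pairs of libraries the log2 ratio was taken, with 0 counts replaced by 0.5, and its 95% interval was computed from the exact binomial distribution conditional on the summed counts (scipy 1.17.1, Python 3.11.15). The 3 terms of the additive model were tested with edgeR's quasi-likelihood test after filterByExpr, with Benjamini-Hochberg adjustment over all genes tested, and with DESeq2 1.42.0 as alternative. The methods were tested on simulated data. CPM per kilobase uses the union of exons. The alternatives were 2 scalings, 1 CPM added, other count minimums and leaving out a state.

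Genes were named as follows: the 9 genes throughout, Jak1, Jak2, Jak3, Tyk2, Stat5a, Stat5b, Il4, Il13 and Nos2 among the references, and list genes called on 100 or more counts in the larger of the libraries compared, at most 4 a list and comparison. Il2rb, Il13ra2, Irs1 and Stat4, and Il10 and Lif in M0 and M2, were named outside this rule. The 9 genes and the lists were chosen with earlier results of these data known. Groups are those of the labels. Some reference genes are not reported here.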

Additional observations from a re-analysis of the deposited data

Results flagged for a closer look

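For 5 of the 9 genes the ratio of regorafenib to control pointed in opposite directions in different states, with the counting interval off 0 on both sides. The interval covers counting error alone, so that even small ratios of well-counted genes leave out 0. The share of all genes that did so was not computed, and the count cannot be read as a trait of these genes. The difference between states was not tested, since each state had 1 library per arm. Il4ra was higher with regorafenib in M0 (log2 ratio 1.07) and M2 (0.42) and lower in M1 (-0.21). Stat3 had the same order, at 0.71, 0.40 and -0.43. Il13ra1 was higher in M2 (1.28) and lower in M1 (-0.47). Il2rg went the other way, higher in M1 (0.59) and M2 (0.21) and lower in M0 (-0.48). Socs1 was lower in M0 (-1.69) and M2 (-0.67) and 0.057 in M1, where its interval reached down to 0.0026.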

How the results depend on the processing

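The additive model pairs the control and regorafenib libraries by state. With 1 library per condition there was no replicate number to pair by. No ratio of the 9 genes lost its direction where it was called. With 1 CPM added, regorafenib called 1 of the 9 genes in each state (1495, 154 and 565 of all genes in M0, M1 and M2, against 2578, 503 and 1290), and 780 and 451 of all genes in M2 against M0 without and with drug, against 1492 and 1100. Asking 100 counts of a pair also left 1 gene called in each state (1594, 176 and 655 of all genes), and 863 and 492 in M2 against M0. In the additive model, dropping the expression filter gave 1 gene of the 9 for regorafenib (333 of all) and 4 for M2 (408 of all), and DESeq2 gave 1 (301) and 3 (416). Without the M1 libraries 386 genes passed for regorafenib, none of them among the 9, and 2 of the 9 (100 of all) passed for M2, where Socs1 had an edgeR adjusted p of 0.0489. Scaling by total counts left 0 of the 9 genes with regorafenib libraries apart from the controls, against 1, an alternative chosen after seeing the data. The causes of these moves were not tested. Scaling by total counts shifted the median of all genes in M1 against M0 to -0.49 without drug and -0.51 with it, from -0.05 and -0.09, and the share of higher calls from 47.2% to 29.4% and from 43.9% to 27.5%. With 1 CPM added the share of higher calls in M2 against M0 under regorafenib was 59.0%, against 48.9%. Counting error limits Socs2, Il13ra1 in M2, and Socs1 and Cish in M0, each under 100 counts in at least 1 library.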
